A study of Saccharomyces cerevisiae with 4 samples.

Results

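Cohesin and condensin are ring-shaped protein complexes that organise yeast chromosomes, and the results below concern 10 of their genes among the 5449 Saccharomyces cerevisiae genes measured. The 10 were taken by gene symbol in the platform annotation: the cohesin subunits MCD1, SMC1, SMC3 and IRR1, the cohesin regulators PDS5, SCC2 and ECO1, and the condensin subunits SMC2, SMC4 and BRN1. Each was read by 1 probe set, so all 10 were measured. Of the cultures, 2 had been treated with 100 µM ebselen, an organic selenium drug that attacks thiol groups, for 3 h, and 2 had received its solvent DMSO, whose exposure time the sample records do not state. All 4 were of the wild type strain W1588-4c, grown in YPD, a rich glucose medium, and taken at log phase (OD600 0.6 to 0.8). Their RNA was hybridized to Affymetrix Yeast Genome 2.0 arrays, 1 array per culture. The labels call the 2 arrays of a group biological replicates.

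Each complex is built on a pair of SMC proteins, long coiled-coil ATPases that meet at a hinge, closed by a kleisin subunit that bridges their heads. Cohesin holds the sister chromatids together from S phase until separase cuts its kleisin at anaphase, and most of its yeast genes are transcribed around the G1/S transition. Condensin folds chromosomes for mitosis and, in yeast, also compacts the ribosomal DNA.

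In the ebselen arrays the 7 listed genes of cohesin and its regulators all rose, by 1.60-fold to 3.45-fold, beside 33.0% of all genes. Among genes of 3000 bp or longer, which include SMC1, SMC3, IRR1, PDS5 and SCC2, 57.5% rose. Of 8 further genes of the cohesin cycle, described below, 4 rose, 2 fell and 2 did not pass the test. The condensin genes YCS4 and YCG1, also outside the list, both rose. The 3 listed condensin genes went separate ways. SMC2 rose 2.26-fold, SMC4 fell by 0.31 on the log2 scale and BRN1 did not pass the test. The largest rises among the listed genes were those of SMC3 and MCD1, which encode an ATPase and the kleisin of the cohesin ring. Values are log2 expression relative to each gene's own median over the 4 arrays, so they show differences between arrays and not how abundant a transcript was. As that median is 0, an ebselen and a DMSO array often carry equal and opposite values. Changes are ebselen minus DMSO on the log2 scale, with limma's moderated standard error (SE, n = 2 arrays per group) and an adjusted p after Benjamini-Hochberg correction over all 5449 genes, called at 0.05.

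**Figure D1:**
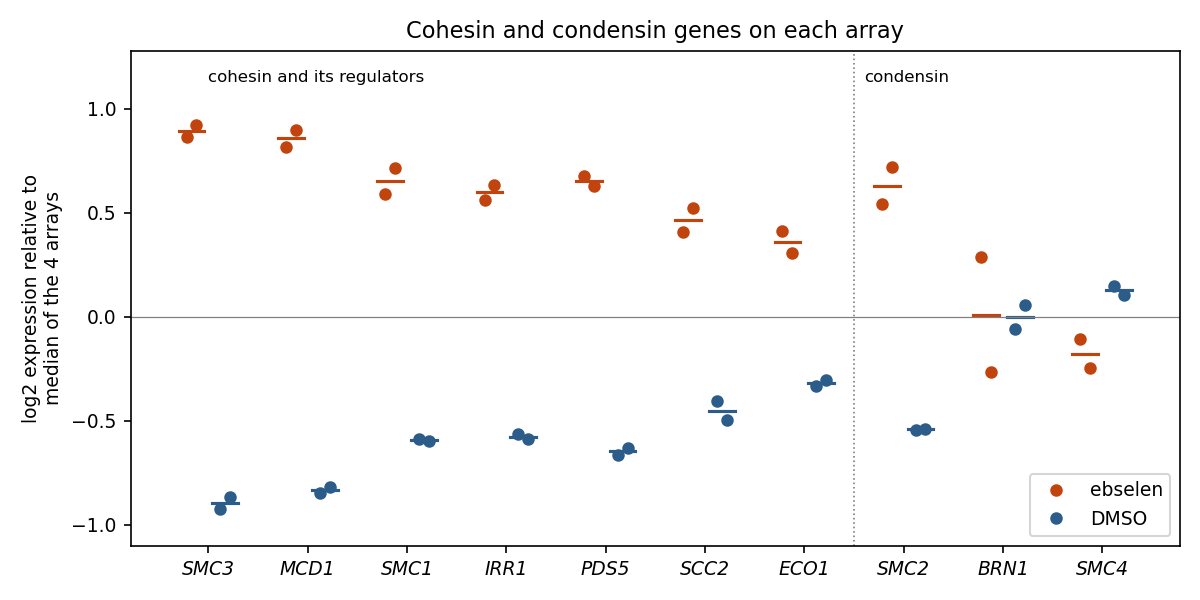
Log2 expression relative to the median of the 4 arrays (vertical axis) for the 10 genes (horizontal axis), with 1 point per array and a bar at the mean of the 2 arrays, ebselen left of DMSO. For 8 genes both ebselen points lie above both DMSO points, SMC4 has them below, and the BRN1 points overlap.

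Of the 10 genes 8 rose, where 33.0% of all genes did, and 1 fell, where 38.8% of all genes did. Together 9 of the 10 were called, beside 71.7% of all genes. The median change of the 10 was 1.17, or 2.26-fold, against −0.03 for all genes. Both ebselen arrays lay above both DMSO arrays for 8 of the 10 (40.5% of all genes) and below them for 1 (46.1% of all genes). Fission yeast probe sets on the same arrays gave a measure of background. Among 1746 of them 95% changed by less than 0.47 and 99% by less than 0.60 in either direction. The 8 rises were larger than both bounds, and the changes of SMC4 and BRN1 lay within the lower one. Scaling on 27 probe sets of hybridization controls shifted the median of all genes by −0.35. The calls over all genes were then 645 higher and 3177 lower, against 1796 and 2113 as deposited. The same 8 genes were still called higher. In that fit limma gave each of the 10 genes the same SE, 0.13, so calls under this scaling do not reflect a gene's own replicate spread. Every direction rests on the deposited labels, since no gene was deleted that could check them. In the arrays labelled ebselen SRX1, the sulfiredoxin gene induced by oxidants, was at −2.57 and −2.55, against 2.55 and 2.70 in the DMSO arrays. For SRX1 that is opposite to the direction known for oxidants, and whether the labels are right was not tested. With the groups exchanged each change would keep its size and turn its sign, and the 8 rises would be 8 falls, set against the same 33.0% of all genes.

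The cohesin ring rose as a whole. SMC3 (YJL074C), which encodes the ring subunit that is acetylated to lock cohesion, stood at 0.86 and 0.92 in the ebselen arrays, against −0.92 and −0.86 in the DMSO arrays. Its change of 1.79 ± 0.056 (3.45-fold, limma adjusted p 2.42e-05) ranked 32nd from the top of 5449 genes (32nd from the bottom with the groups exchanged). MCD1 (YDL003W), the kleisin that separase cleaves, was at 0.82 and 0.90 in the ebselen arrays, against −0.85 and −0.82 in the DMSO arrays. The change was 1.69 ± 0.056 (3.23-fold, limma adjusted p 2.75e-05), the 39th largest. For both genes the arrays of a group lay within 0.08 of each other, far closer than the groups. Transcript levels of 2 ring subunits were thus higher by more than 3-fold in the values as deposited. With hybridization-control scaling the rises were 2.53-fold for MCD1 and 2.70-fold for SMC3, and quantile normalization gave larger changes, described below.

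The other ring subunits rose less. SMC1 (YFL008W), the partner ATPase of Smc3, was at 0.59 and 0.71 in the ebselen arrays, against −0.59 and −0.60 in the DMSO arrays. Its change was 1.24 ± 0.063 (2.37-fold, limma adjusted p 7.50e-05). IRR1 (YIL026C), also known as SCC3, encodes the HEAT-repeat subunit that binds the kleisin and DNA. It was at 0.56 and 0.64 in the ebselen arrays, against −0.56 and −0.59 in the DMSO arrays. The groups did not overlap for either gene, and the change of IRR1 was 1.17 ± 0.055 (2.26-fold, limma adjusted p 6.27e-05). The rises of the SMC pair were unequal: SMC1 minus SMC3 was −0.27 and −0.21 in the ebselen arrays, against 0.33 and 0.27 in the DMSO arrays, a difference of −0.54 between the changes. That pair was singled out after its values were seen and carries no test.

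The 3 regulators among the 10 genes rose as well, each by less than SMC3 and MCD1; the other regulators, described below, were mixed. PDS5 (YMR076C), which keeps cohesin on chromosomes and also takes part in its release, was at 0.68 and 0.63 in the ebselen arrays, against −0.66 and −0.63 in the DMSO arrays. Its change was 1.30 ± 0.052 (2.46-fold, limma adjusted p 4.77e-05). SCC2 (YDR180W), the catalytic subunit of the loader that places cohesin on DNA, was at 0.41 and 0.52 in the ebselen arrays, against −0.41 and −0.49 in the DMSO arrays. With 0.92 ± 0.067 (1.89-fold, limma adjusted p 0.000214) it changed less than PDS5. ECO1 (YFR027W), the acetyltransferase that modifies Smc3 during replication, had the smallest rise of the group. It was at 0.41 and 0.31 in the ebselen arrays, against −0.33 and −0.31 in the DMSO arrays, a change of 0.68 ± 0.060 (1.60-fold, limma adjusted p 0.000378). RNA came from whole cultures, so a larger share of cells at the stage that expresses a gene and more RNA of that gene per cell cannot be told apart.

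Condensin did not move as one. SMC2 (YFR031C), one ATPase of the condensin ring, was at 0.54 and 0.72 in the ebselen arrays, against −0.54 in both DMSO arrays. Its change of 1.17 ± 0.075 (2.26-fold, limma adjusted p 0.000139) was close to that of IRR1. SMC4 (YLR086W), the ATPase that pairs with Smc2, was at −0.11 and −0.25 in the ebselen arrays, against 0.15 and 0.11 in the DMSO arrays. It was the single member lower in ebselen, without overlap, by −0.31 ± 0.067 (limma adjusted p 0.01003), or 1.24-fold lower. The call was lost without DMSO replicate 1 (adjusted p 0.0505) and in the methods' t-test (0.0846). The 2 subunits of one dimer thus differed between the groups in opposite directions: SMC2 minus SMC4 was 0.65 and 0.97 in the ebselen arrays, against −0.69 and −0.65 in the DMSO arrays. This pair too was chosen after its values were seen, and the difference of 1.48 between the changes is a description.

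BRN1 (YBL097W), the condensin kleisin, was the only one of the 10 genes whose groups overlapped. It was at 0.29 and −0.27 in the ebselen arrays, against −0.06 and 0.06 in the DMSO arrays. The ebselen values lie on either side of the DMSO values, and the mean change was 0.01 ± 0.18 (95% interval −0.46 to 0.48, limma adjusted p 0.961). The ebselen arrays differed from each other by 0.55 for BRN1, and only 27 of all genes had a larger gap. The median gap over all genes was 0.078. A single array decided its call: without ebselen replicate 1 the change was −0.27 (limma adjusted p 0.0313), and without ebselen replicate 2 it was 0.29 (0.0248). The interval reaches to both sides of 0, so these arrays do not settle a direction for BRN1.

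The condensin complex has 2 further subunits, the HEAT-repeat proteins Ycs4 and Ycg1, and both genes rose. YCS4 was at 0.41 and 0.46 in the ebselen arrays, against −0.49 and −0.41 in the DMSO arrays, a change of 0.88 ± 0.056 (limma adjusted p 0.000138). YCG1 was at 0.39 and 0.49 in the ebselen arrays, against −0.43 and −0.39 in the DMSO arrays, a change of 0.85 ± 0.059 (limma adjusted p 0.000178). Of the 5 condensin genes, 3 therefore rose, 1 fell and 1 did not pass, with a median of 0.85. Of all genes 33.0% rose and 38.8% fell. All of the 5 but BRN1 are 3000 bp or longer, and of genes that long 57.5% rose and 16.1% fell. The condensin count is near the shares of long genes.

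Coding length, here the gene's length in the RefSeq table with any introns counted, went with the change over all genes. SMC and HEAT-repeat proteins are large. Of the 10 genes 7 have a coding length of 3453 to 4482 bp, and among the 461 genes of 3000 bp or longer 57.5% rose and 16.1% fell, with a median change of 0.28. Genes under 1000 bp had a median of −0.13. Of the 7 long members 6 rose and 1 fell. SMC3 ranked 4th of the 461 long genes by its change, PDS5 12th, SMC1 16th, IRR1 18th, SMC2 19th and SCC2 37th. SMC4 ranked 412th. With the trend in coding length taken off each array, the 6 long members that rose changed by less: SMC3 by 1.52, SMC1 by 0.98, IRR1 by 0.92, PDS5 by 1.03, SCC2 by 0.62 and SMC2 by 0.91. MCD1 and ECO1, which are shorter, changed by 1.72 and 0.86. SMC4, the other long member, changed by more, −0.59 against −0.31 as deposited. The same 8 genes were higher and SMC4 lower in limma on those values, and the median of the 10 was 0.92.

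The array's own controls differed between the groups in the balance of 5′ and 3′ signal. For 8 yeast control transcripts the 5′ minus 3′ signal changed by −0.75 ± 0.26 (SD over 8 transcripts), from −1.11 to −0.35, all 8 in the same direction. Labelling on these arrays starts at the poly-A end, and the positions of the probes along the 10 transcripts were not used here. Its part in the changes of the 10 genes was not tested.

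**Figure D2:**
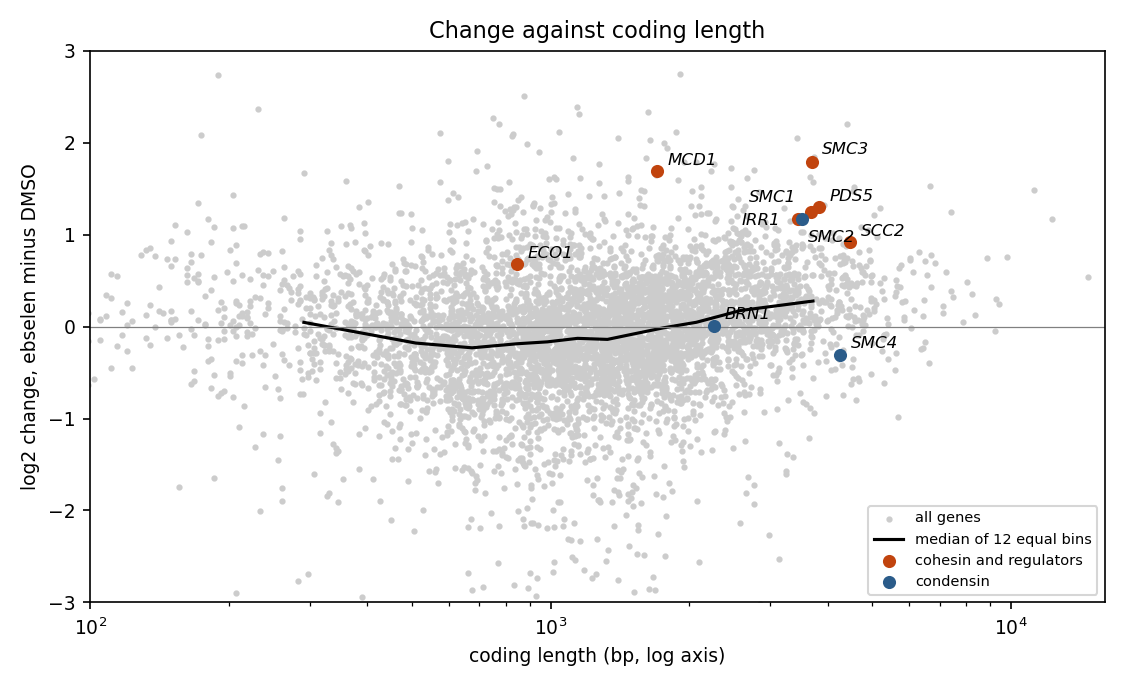
Log2 change, ebselen minus DMSO (vertical axis), against coding length in bp on a log axis (horizontal axis) for all genes in grey, the 7 genes of cohesin and its regulators in red and the 3 condensin genes in blue, with the median of 12 equal-sized bins as a line. The line climbs towards long genes, 8 of the 10 genes lie well above it and SMC4 lies below it; 48 genes fall outside the plotted range.

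Genes that act on cohesin outside these 10 were mixed in direction. Among 28 related genes 18 rose and 7 fell, with a median of 0.58, beside the 33.0% and 38.8% of all genes. Of the 28, 17 changed by more than 0.60, the 99% bound of the fission yeast probe sets. The called changes of CDC5, CTF4, CTF8, DCC1 and NSE5 lay within their 95% bound of 0.47. With hybridization-control scaling 13 rose and 9 fell, with a median of 0.22, beside 645 and 3177 of all 5449 genes. Of 8 further genes of the cohesin cycle, 4 rose, 2 fell and 2 did not pass. The 4 that rose were ESP1, SGO1, PDS1 and CDC5. ESP1, the separase that cuts Mcd1, was at 0.51 and 0.54 in the ebselen arrays, against −0.51 and −0.53 in the DMSO arrays, a change of 1.05 ± 0.050 (limma adjusted p 6.57e-05). PDS1, the securin that restrains Esp1, changed by 0.89 ± 0.053, and SGO1, the shugoshin that monitors tension at centromeres, by 0.97 ± 0.052. CDC5, the polo kinase that promotes cleavage of Mcd1, rose by 0.44 ± 0.050, a call it lost under hybridization-control scaling (0.08).

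The 2 falls concerned other parts of the cycle. REC8, the kleisin that replaces Mcd1 in meiosis, was at −0.37 and −0.63 in the ebselen arrays, against 0.53 and 0.37 in the DMSO arrays, a change of −0.95 ± 0.11 (limma adjusted p 0.000890). RAD61, which with Pds5 opens the ring to release cohesin, was at −0.29 and −0.65 in the ebselen arrays, against 0.36 and 0.29 in the DMSO arrays. Its change was −0.79 ± 0.12 (limma adjusted p 0.00289). Both groups stood apart for each gene, although in the methods' t-test the adjusted p was 0.0512 for REC8 and 0.0805 for RAD61. The kleisins MCD1 and REC8, of the mitotic and the meiotic ring, therefore changed in opposite directions. SCC4, the partner of Scc2 in the loader, changed by 0.13 ± 0.060 (95% interval −0.02 to 0.29), and HOS1, which removes the acetyl mark from Smc3, by −0.08 ± 0.052. Neither passed the test. SCC4 passed as higher with quantile normalization (0.17), and HOS1 passed as lower with hybridization-control scaling (−0.44).

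Genes that help to establish cohesion at the replication fork rose in 8 cases of 10 and fell in 2, beside 33.0% and 38.8% of all genes, with a median of 0.92. CTF18, of an alternative clamp loader, was at 0.86 and 0.79 in the ebselen arrays, against −0.94 and −0.79 in the DMSO arrays, a change of 1.69 ± 0.069 of the same size as that of MCD1. TOF1, of the fork protection complex, changed by 1.57 ± 0.073, and POL30, the sliding clamp PCNA, by 1.499 ± 0.094. ELG1, which unloads PCNA, changed by 0.98 ± 0.062, the helicase gene CHL1 by 0.92 ± 0.053 and the checkpoint mediator gene MRC1 by 0.92 ± 0.11, although MRC1 missed the methods' t-test (adjusted p 0.0582). CSM3, the partner of Tof1, changed by 0.58 ± 0.060, and CTF4, a hub of the replisome, by 0.43 ± 0.12. Both of these lost their calls under hybridization-control scaling (0.23 and 0.07). CTF8 and DCC1, the remaining subunits particular to the Ctf18 clamp loader, fell by 0.44 and 0.23 on the log2 scale while CTF18 rose. The call of DCC1 was lost without any 1 of 3 arrays (DMSO replicate 1, DMSO replicate 2 or ebselen replicate 2; adjusted p 0.101, 0.0786 and 0.0698), and that of CTF4 without DMSO replicate 1 or DMSO replicate 2 (0.0541 and 0.0527). With the length trend removed neither was called (DCC1 −0.098 and CTF4 0.22), and neither passed the methods' t-test (adjusted p 0.112 and 0.174).

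**Figure D3:**
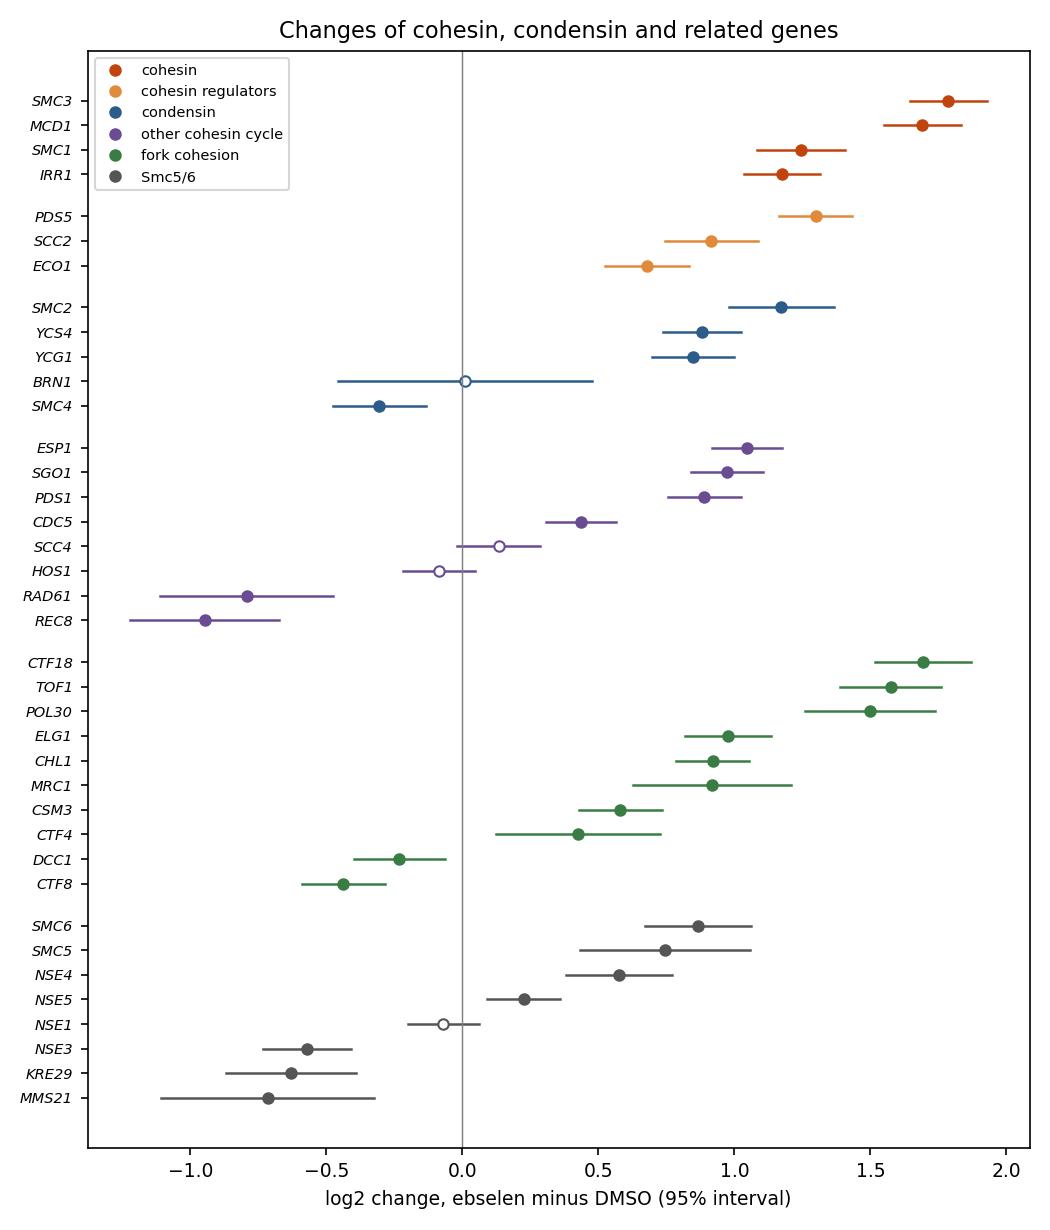
Log2 change, ebselen minus DMSO (horizontal axis), with its 95% interval from limma for the 10 genes and 28 related genes, grouped and coloured by complex or role; filled points passed the test at an adjusted p of 0.05 and open points did not. The cohesin genes and most fork genes lie right of 0, while condensin, the other cohesin cycle genes and Smc5/6 hold genes on both sides.

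The Smc5/6 complex, the third SMC complex, acts in DNA repair. Of its 8 genes 4 rose, 3 fell and 1 did not pass, near the shares of all genes (33.0% and 38.8%), with a median of 0.08. The ATPase genes SMC5 and SMC6 changed by 0.75 ± 0.12 and 0.87 ± 0.076, and the kleisin gene NSE4 by 0.57 ± 0.076, a call lost under hybridization-control scaling (0.22). NSE5 rose by 0.23 ± 0.053, a call lost without DMSO replicate 2 (adjusted p 0.0946), and turned to −0.13 under hybridization-control scaling. The SUMO ligase gene MMS21 changed by −0.72 ± 0.15, KRE29 by −0.63 ± 0.093 and NSE3 by −0.57 ± 0.063, and NSE1 changed by −0.07 ± 0.051 without passing, but was called lower under hybridization-control scaling (−0.42). In the methods' t-test the calls of MMS21, KRE29, SMC5 and NSE4 were lost (adjusted p 0.129, 0.0679, 0.0860 and 0.0514). Coding length went largely with direction. SMC5, SMC6 and NSE5, which rose, have 3282, 3345 and 1671 bp, longer than each gene that fell. NSE4, which also rose, has 1209 bp, and MMS21, KRE29 and NSE3, which fell, have 804, 1395 and 912 bp. The part of length in these changes was not tested. With the length trend removed all 7 kept their calls, with limma adjusted p values from 0.000629 for NSE4 to 0.0183 for MMS21. The sizes moved. SMC5 (0.50), SMC6 (0.61), MMS21 (−0.52), KRE29 (−0.54) and NSE3 (−0.40) then changed by less, and NSE4 (0.70) and NSE5 (0.26) by more.

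Genes next to the 10 on the chromosome moved in both directions. Of the 20 flanking positions, 17 held a measured gene, of which 7 rose, 7 fell and 3 did not pass, with a median of 0.04. With hybridization-control scaling 3 rose and 9 fell, beside 645 and 3177 of all 5449 genes. In the methods' t-test 4 rose and 5 fell, beside 1233 and 1410 of all genes. JEM1, NVJ3, ULI1, SAS4 and MRX3 lost their calls in that test. MCD1 rose between neighbours that both fell: ATP16, a subunit gene of the ATP synthase, changed by −0.62 ± 0.057, and NHP10, of the INO80 chromatin remodeller, by −0.97 ± 0.086. VPS20, beside PDS5, changed by −0.86 ± 0.054, and MET10, which is transcribed towards SMC2, by −0.89 ± 0.068. On the other side of SMC2, RPL2A, a ribosomal protein gene with a near-identical paralog, changed by 0.89 ± 0.064. That is the mean of 2 probe sets that differed, as 1 of them alone changed by 1.32. CDC14, the phosphatase gene beside ECO1, rose by 0.99 ± 0.092. Of the genes next to SMC1, BLM10 changed by −0.23 ± 0.052 (a call lost without DMSO replicate 2, adjusted p 0.0835) and CDC4 by 0.03 ± 0.054, which did not pass. Beside SCC2, NVJ3 changed by 0.50 ± 0.090 (0.14 under hybridization-control scaling, not called) and SAS4 by −0.49 ± 0.084. EMC5, beside IRR1, changed by 0.32 ± 0.050 (−0.030 under hybridization-control scaling). Of the 3 neighbours that start from the same intergenic stretch as a member, JEM1 beside SMC3 (0.55 ± 0.084) and ULI1 beside ECO1 (0.32 ± 0.071) rose with it, although ULI1 turned to −0.033 and JEM1 lost its call (0.19) under hybridization-control scaling. ARP6, which diverges from SMC4, changed by 0.15 ± 0.059 and did not pass, while CSF1 on the other side of SMC4 rose by 0.74 ± 0.058. Of the genes beside BRN1, BNA4 changed by 0.04 ± 0.066 without passing, and MRX3 by −0.32 ± 0.083 (a call lost without DMSO replicate 2, adjusted p 0.0745). The 7 of 17 that rose stand beside 33.0% of all genes, and the 7 that fell beside 38.8%. The called changes of BLM10, EMC5, ULI1 and MRX3 lay within 0.47, the 95% bound of the fission yeast probe sets.

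Profiles close to that of MCD1 were sought outside the member and related lists, so other cohesin genes were left out of the ranking beforehand. Likeness was the root-mean-square difference over the 4 arrays, which here mainly reflects a change of the same size. The 5 nearest genes outside the member and related lists were YMR030W-A (0.013), MCD4 (0.021), RPS10B (0.034), RPL22B (0.036) and GWT1 (0.055). MCD4 and GWT1 encode enzymes of glycosylphosphatidylinositol anchor synthesis, and RPS10B and RPL22B encode ribosomal proteins that each have a paralog. SMC3 lay at 0.051 from MCD1, with 4 of these genes closer, PDS5 at 0.20 with 74 closer and SMC1 at 0.23 with 91 closer. ECO1 lay at 0.51 with 540 closer and SMC4 at 1.00 with 3701 closer.

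How the arrays are brought to one scale moved the sizes of the changes. Hybridization-control scaling takes a single value off each array, so it shifts every change alike, by −0.35, and cannot alter their order. SMC3 changed by 1.43 with hybridization-control scaling and by 2.34 with quantile normalization, and MCD1 by 1.34 and 2.19 in the same settings. ECO1 had the lowest of these values among the 8 genes that rose, 0.32 with hybridization-control scaling, and passed at a limma adjusted p of 0.0226. SMC4 changed by −0.66 with hybridization-control scaling and by −0.26 with quantile normalization. Quantile normalization was run on RMA values already centred on each probe set's median, to which such a step is poorly suited. It made the 8 rises larger and the fall of SRX1 smaller, −4.16 against −5.19 as deposited. Its sizes are therefore no better estimate of the changes. BRN1 changed by −0.34 with hybridization-control scaling and was then called lower (limma adjusted p 0.0151), although its groups still overlapped.

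**Figure D4:**
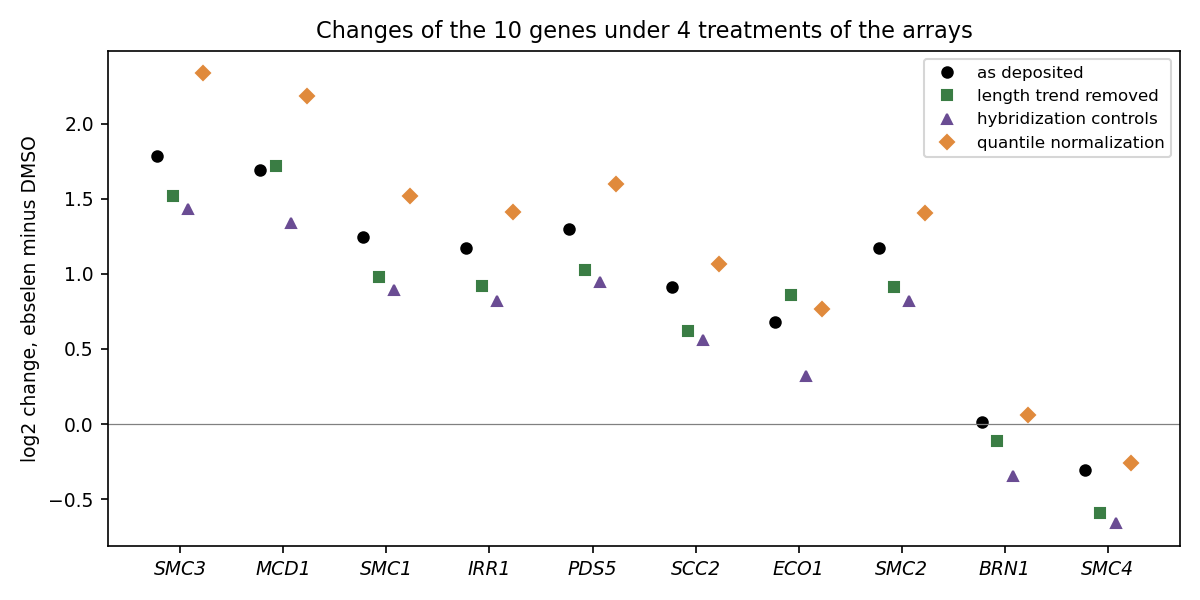
Log2 change, ebselen minus DMSO (vertical axis), of the 10 genes (horizontal axis) for the values as deposited, with the coding-length trend removed, with scaling on hybridization controls and with quantile normalization. The 8 genes that rose stay above 0 in all 4, from 0.32 for ECO1 to 2.34 for SMC3, and SMC4 stays below 0.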

How the data were processed

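Values were the log2 expression values deposited by the authors, made by RMA per the submitters' processing notes; log base 2 is assumed, as RMA gives it, and every fold rests on that. For their own calls the authors ran a t-test, corrected by Benjamini-Hochberg, in GeneSpring 7.2, per the design text. In the deposited table each probe set's median over the 4 arrays is 0, so absolute levels are unknown. Of 10928 probe sets, 5498 matched 5449 genes of a RefSeq table (assembly R64, used for names, neighbours and coding lengths; the files name no build, so no coordinates are given), and a gene's probe sets were averaged. Probe sets of 1746 other annotated genes were taken as fission yeast.

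Arrays labelled ebselen and DMSO (2 each) were compared in limma 3.58.1 (R 4.3.3) with group as the only term, two-sided, over all 5449 genes; the procedure was tested on simulated data. Residual degrees of freedom were 2 and prior ones 3.13. The number of arrays limits precision. The members and lists were chosen with earlier results of these data known. The rule for named genes took the 10 members, the related genes, the neighbours and the 5 profiles nearest MCD1. A total of 15 alternatives were run. Figures used matplotlib 3.10.9.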

Additional observations from a re-analysis of the deposited data

How the results depend on the processing

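The 8 genes that rose kept their direction and call in all 120 combinations with the 15 alternatives (largest adjusted p 0.0244), and 9 members were higher without ebselen replicate 2, when BRN1 passed. In several alternatives, among them the replicate block, the methods' t-test and the adjusted p of 0.01, the changes of these 8 genes are the same as in the main fit. Only the call could differ there. The number of members called lower was 1 as deposited. It was 0 in the methods' t-test and at an adjusted p of 0.01, 2 with hybridization-control scaling, and 0 to 2 with 1 array left out (0 without DMSO replicate 1, 2 without ebselen replicate 1). In the methods' t-test 14 related genes were higher and 2 lower, against 18 and 7. Of all 5449 genes 1233 were higher and 1410 lower in that test. With 1 array left out, the lone array of that group is assumed to vary like the other group. The median of the members, 1.17, was 1.41 with quantile normalization, 1.11 with centring on fission yeast probe sets, 0.82 with hybridization-control scaling, 0.92 with the length trend removed and 1.11 to 1.24 with 1 array left out. The median of the related genes, 0.58, was 0.64, 0.51, 0.22 and 0.55 in the same 4 settings, 0.61 with centring on the median gene, 0.85 over genes varying more than fission yeast probe sets (fewer genes tested) and 0.55 to 0.60 with 1 array left out. Deviations of same-numbered arrays correlated at −0.075 over 5449 genes. With 2 arrays per group the crossed pairing gives the same value with the opposite sign, so this cannot exclude a pairing by replicate number. With the replicate block 8 members were higher and 1 lower, and 18 related genes were higher.

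Some values turned sign. BRN1 changed by −0.05 without DMSO replicate 1, −0.27 without ebselen replicate 1 (0.2875 without ebselen replicate 2), −0.0555 with fission yeast centring, −0.34 with hybridization-control scaling and −0.11 with the length trend removed. Hybridization-control scaling also gave SCC4 −0.22, NSE5 −0.13, CDC4 −0.33, EMC5 −0.0299, ULI1 −0.0326, ARP6 −0.20 and BNA4 −0.32. Removing the length trend gave HOS1 0.0002, NSE1 0.085 and CDC4 −0.11. CDC4 was at −0.0045 to 0.0582 with 1 array left out and −0.0394 with fission yeast centring. BNA4 was at −0.0277 in that setting and −0.0317 to 0.1088 with 1 array left out. The cause of these shifts was not tested. Among 415 combinations of a related gene and an alternative, 379 kept their direction and call, 27 lost the call, 5 gained it and 4 turned sign.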
